A study of Mus musculus with 36 samples.

Results

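The early response of enteric glial cells (EGCs) to tumor microenvironment conditioned medium (TME-CM) was examined by comparing the 4 libraries titled as 6 h of tumor conditioned medium with the 4 libraries titled as unstimulated at 6 h, which are 8 of the 36 libraries in the series. All libraries were made from primary WT EGCs grown out of neurospheres that were derived from the intestines of mouse embryos, and 3′ mRNA sequencing gave counts per gene. TME-CM is the medium in which digested orthotopic MC38 tumors, a mouse colorectal cancer line grown in the colon wall, had been kept overnight, and it therefore carries the products of all cells of the tumor. The unstimulated cells received no conditioned medium. A further 4 libraries of the same time point received medium from healthy colon (H-CM) and shared the statistical fit. The labels do not say whether replicates were separate cultures or which tumors supplied the medium, so that the p-values below describe the spread between these libraries, which may be technical.

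EGCs are the peripheral glia of the enteric nervous system, and in inflammation they are known to release chemokines and cytokines. Rapid transcription in cells exposed to inflammatory fluids usually runs through NF-κB, which switches on chemokines, adhesion molecules and its own inhibitor IκBα, and through interferon receptors, which switch on interferon-stimulated genes. Secondary acute-phase genes such as Lcn2 and Saa3 typically follow.

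The 6 h libraries were uneven. Totals were 256453 to 4631102 counts in the unstimulated group and 1321201 to 5244763 counts in the TME-CM group, and H-CM replicate 4 held only 13518 counts. Yam1, the symbol of a long noncoding RNA, took 46.3%, 44.001%, 43.1% and 13.1% of the counts in unstimulated replicates 1 to 4, and 12.3%, 37.8%, 10.97% and 14.2% in TME-CM replicates 1 to 4. Thus 3 unstimulated libraries and 1 TME-CM library had a high Yam1 share, and the groups overlapped (difference −17.8 percentage points, two-sided exact permutation test, p = 0.0857, where 4 against 4 libraries allow no p below 0.0286). Mitochondrial transcripts took 8.90% ± 5.38 of the counts in unstimulated cells and 15.5% ± 6.67 after TME-CM (SD, n = 4 each, exact permutation test, p = 0.171).

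**Figure D1:**
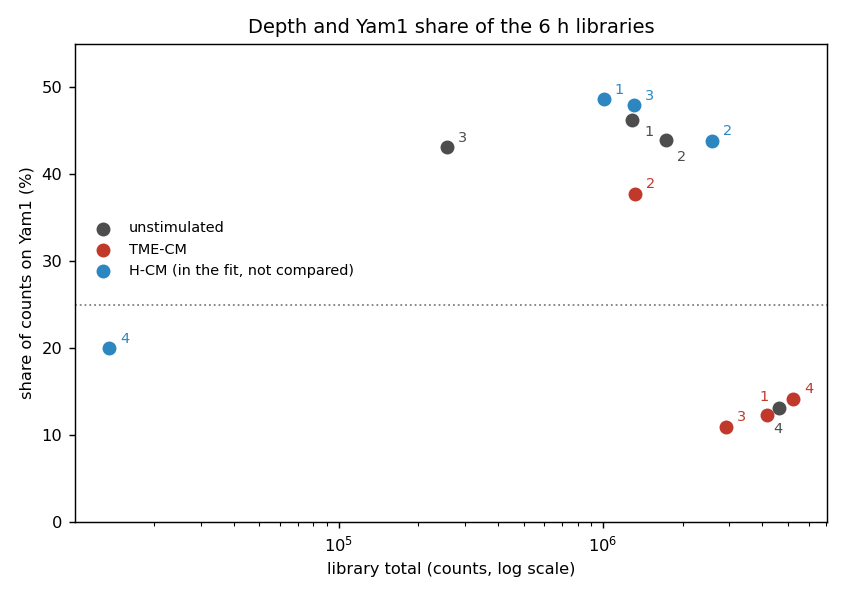
Share of counts on Yam1 (%, vertical axis) against the library total (counts, log scale) for the 12 libraries of 6 h, numbered by replicate and colored by group, with a dotted line at 25%. Unstimulated replicate 4 sits with TME-CM replicates 1, 3 and 4 at low Yam1 and high depth, and TME-CM replicate 2 sits with the other unstimulated libraries.

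At 6 h, TME-CM raised single members of several gene groups: 5 chemokines, 3 of 16 tested adhesion molecules and syndecans, 6 of 19 type I interferon-stimulated genes and, of 14 NF-κB genes, the inhibitor Nfkbia. Of 9256 genes tested with edgeR's quasi-likelihood test, 42 were called at an adjusted p under 0.05 (0.454% of the genes tested), 40 of them higher (0.432%) and 2 lower (0.0216%), and 573 had an unadjusted p under 0.05. The median log2 fold change of all tested genes was 0.04. In 39 of the 42 genes the TME-CM and unstimulated libraries did not overlap, against 3.53% of all tested genes, and the exceptions were Mmp10, Mt2 and Gm22710. The same libraries chose the 42 genes, so this count is a description. The call set depended on single libraries: 26 genes were called without H-CM replicate 4, which enters the shared spread and the count filter (10305 genes were then tested), 35 when the shallow unstimulated replicate 3 was dropped, 29 when both were, 19 on dropping unstimulated replicate 1 and 105, of which 59 were higher and 46 lower, on dropping TME-CM replicate 2. Dropping unstimulated replicate 2 left 21, TME-CM replicate 3 left 22 and TME-CM replicate 4 left 26. Leaving out both shallow libraries cut the called CXC chemokines from 3 to 1 and the called adhesion molecules from 3 to 1, and left 5 of the 6 called type I interferon-stimulated genes in number. All 42 kept their direction in 21 other settings wherever they were tested, and the 11 called in all 21 included Cxcl1, Ccl2, Ccl7, Ifit3, Gbp2, Irgm2, Irf9, Cebpd, Ier3 and Nfkbia. Others were called in 10 of the 21 or fewer, where an untested gene counts as not called. These were Mndal (10), Icam1, Oasl2, Ifi47 and Cp (9 each), Mitd1 (8), and Mmp10, Gm22710, Mt2 and Hk2 (7 each). Ptges, Nmi, Tm4sf1, Twf2 and Ctsh were called in 6 each and Slco3a1 in 5.

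**Figure D2:**
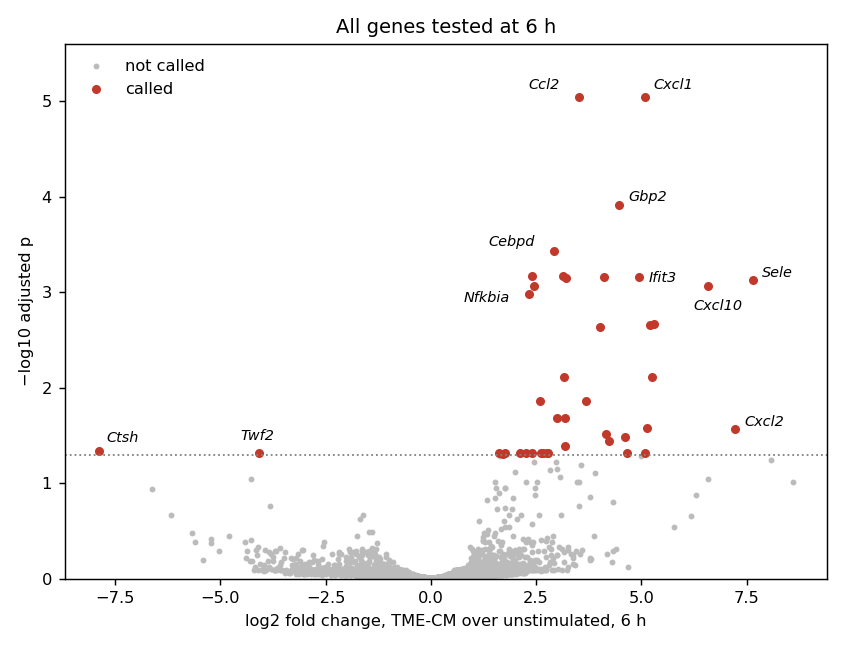
Log2 fold change (TME-CM over unstimulated, horizontal axis) against −log10 adjusted p (vertical axis) for the 9256 genes tested at 6 h, with the 42 called genes in red and a dotted line at an adjusted p of 0.05. Of the called genes 40 lie on the right, led by Cxcl1 and Ccl2 in adjusted p and by Sele in size, and Twf2 and Ctsh lie on the left.

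Because the Yam1 share and depth ran partly with treatment, the called genes were also read within each class of library. Among libraries with a Yam1 share above 25%, TME-CM replicate 2 exceeded all 3 unstimulated libraries in 38 of the 40 higher genes, against 22.5% of all tested genes, the exceptions being Gm22710 and Mt2. Among libraries at or below that share, TME-CM replicates 1, 3 and 4 all exceeded unstimulated replicate 4 in 40 of 40, against 16.9% of all tested genes. These libraries also chose the genes, and the limit of 25% was set after the shares were seen, so both counts are descriptions. With a term for the Yam1 class in the fit, 21 genes were called, 19 of them among the 42, and with the log2 Yam1 share as a covariate 18 were called, 17 of them among the 42.

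The chemokines Cxcl1 and Ccl2 had the smallest adjusted p of all genes tested. Values are CPM, counts scaled to a common library size adjusted by TMM, listed for replicates 1 to 4. Errors of log2 fold changes, in the text and figures, are approximate standard errors. They were back-calculated as the absolute log2 fold change divided by the square root of the test's F statistic. Cxcl1, a neutrophil attractant acting on CXCR2, measured 12.4, 12.8, 19.5 and 5.10 CPM in the unstimulated libraries and 358, 147, 474 and 491 CPM after TME-CM (log2 fold change 5.08 ± 0.57, adjusted p = 8.93e-06). Ccl2, the main monocyte attractant acting on CCR2, measured 78.1, 120.4, 107 and 84.8 CPM in the unstimulated libraries and 961, 864, 774 and 1885 CPM after TME-CM (log2 fold change 3.53 ± 0.41, adjusted p = 8.93e-06). In both genes every TME-CM library lay far above every unstimulated library, and Ccl2 already stood near 100 CPM without stimulation, with TME-CM replicate 4 well above the other TME-CM libraries. Ccl7, its neighbor with a similar role in monocyte recruitment, measured 26.7, 40.4, 63.5 and 16.2 CPM in the unstimulated libraries and 325, 213, 298 and 359.6 CPM after TME-CM (log2 fold change 3.14 ± 0.48, adjusted p = 0.000669). Cxcl2, a second CXCR2 ligand, measured 2.86, 6.73, 9.77 and 0 CPM in the unstimulated libraries and 413, 138, 462 and 893 CPM after TME-CM (log2 fold change 7.23 ± 1.21, adjusted p = 0.0271). Cxcl10, a CXCR3 ligand that draws activated T cells, measured 5.71, 4.04, 4.88 and 0.91 CPM in the unstimulated libraries and 82.01, 129.6, 394 and 614 CPM after TME-CM (log2 fold change 6.58 ± 0.92, adjusted p = 0.000863). For Cxcl2 and Cxcl10 the 4 unstimulated libraries held at most 9.77 CPM, so the size of the fold rests on few control counts, and dropping 1 library at a time ended the Cxcl2 call in 5 of 8 fits.

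Of the 8 CXC and CX3C chemokines tested, 3 were called higher, against 0.432% of all tested genes, and none lower, and the median log2 fold change was 2.57. The 3 were Cxcl1, Cxcl2 and Cxcl10. Members low in unstimulated cells could pass the count filter only if they rose. With no filter, 12 of 14 members were positive, 4 were called higher and the median was 2.32. Cxcl5, a further CXCR2 ligand, measured 11.4, 8.75, 29.3 and 0.182 CPM in the unstimulated libraries and 77.01, 27.6, 40.7 and 138 CPM after TME-CM, with overlapping groups (adjusted p = 0.486). Of 5 CC chemokines tested, Ccl2 and Ccl7 were higher, while Ccl5, Ccl6 and Ccl9 had log2 fold changes of -3.15, -1.70 and -0.73 that did not pass. The list's median was −0.73, but its sign was not stable: it was 0.28 to 3.05 in the 8 fits that each dropped a library, in which 4 to 6 of its genes were tested. Ccl20, which attracts CCR6-bearing lymphocytes and dendritic cells, was too low to be tested and had 3 counts over the unstimulated libraries and 74, 4, 35 and 110 counts in TME-CM replicates 1 to 4.

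Of the 5 called chemokines 4 lie in neighboring pairs, and Cxcl10 stands apart from the CXC pair. On GRCm38, Cxcl1 spans chr5:90891241-90893115 and Cxcl2 chr5:90903871-90905938, both on the plus strand, and Ccl2 spans chr11:82035571-82037453 with Ccl7 at chr11:82045712-82047525. The promoter windows of Cxcl2, Cxcl10 and Cxcl1 are printed because they carry κB letters, GGG and TTCC separated by any 3 bases, and belong to the called genes with the largest changes that do so; Gbp2, an interferon-inducible GTPase, is the next. Each line gives 250 bases before to 50 bases after the RefSeq start (GRCm38.p6), 5′ to 3′ on the strand of the gene. Capitals mark matches to the κB letters or to interferon-response letters, GAAA and GAAA separated by any 2 bases, on either strand, and overlapping matches run together.
Cxcl2: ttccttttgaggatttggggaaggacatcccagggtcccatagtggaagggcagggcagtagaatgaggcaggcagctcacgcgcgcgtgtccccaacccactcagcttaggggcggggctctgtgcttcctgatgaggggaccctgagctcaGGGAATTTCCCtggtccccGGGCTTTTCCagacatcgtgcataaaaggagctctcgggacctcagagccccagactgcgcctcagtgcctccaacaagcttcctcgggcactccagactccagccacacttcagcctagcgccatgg
Cxcl10: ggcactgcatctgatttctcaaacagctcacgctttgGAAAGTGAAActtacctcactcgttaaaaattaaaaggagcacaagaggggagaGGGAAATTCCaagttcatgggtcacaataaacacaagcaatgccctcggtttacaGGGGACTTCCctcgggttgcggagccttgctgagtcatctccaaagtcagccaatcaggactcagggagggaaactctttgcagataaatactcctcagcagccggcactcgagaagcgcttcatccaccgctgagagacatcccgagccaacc
Cxcl1: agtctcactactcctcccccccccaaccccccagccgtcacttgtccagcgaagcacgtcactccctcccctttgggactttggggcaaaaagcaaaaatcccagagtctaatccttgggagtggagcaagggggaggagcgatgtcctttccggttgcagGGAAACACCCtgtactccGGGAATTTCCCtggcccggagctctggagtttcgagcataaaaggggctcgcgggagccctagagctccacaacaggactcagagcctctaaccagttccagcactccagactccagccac
Gbp2: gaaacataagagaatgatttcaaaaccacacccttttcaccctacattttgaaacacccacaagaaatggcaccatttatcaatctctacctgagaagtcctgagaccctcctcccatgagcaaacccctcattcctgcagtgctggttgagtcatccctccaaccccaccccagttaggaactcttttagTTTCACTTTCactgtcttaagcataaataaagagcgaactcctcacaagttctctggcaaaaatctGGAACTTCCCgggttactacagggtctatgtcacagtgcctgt
The Cxcl2 window is chr5:90903649-90903948 on the plus strand, the Cxcl1 window chr5:90890995-90891294 on the plus strand, the Cxcl10 window chr5:92348840-92349139 on the minus strand and the Gbp2 window chr3:142620413-142620712 on the plus strand. In Cxcl1 and Cxcl2 the same run GGGAATTTCCC, which matches on both strands, begins 71 and 97 bases before the start. Cxcl10 held 2 κB matches and 1 interferon-response match, and Gbp2 held 1 of each, its κB match lying just after the start. Among 35 promoters of the 31 higher genes in the table, 7 (20%) held the κB letters, against 5.56% of all 32851 promoters of the same length, and 37.1% held the interferon-response letters, against 3.44%. The letters TGANTCA, bound by AP-1, were in 31.4% against 7.81%. These matches describe the letters and do not show binding.

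Sele, Vcam1 and Icam1, which bind leukocytes, were the adhesion molecules that rose. Sele encodes E-selectin, best known from activated endothelium, and measured 0, 0, 0 and 0.364 CPM in the unstimulated libraries and 71.6, 18.4, 39.7 and 76.03 CPM after TME-CM (log2 fold change 7.64 ± 1.22, adjusted p = 0.00075). It had 2 counts over the unstimulated libraries and 900 over the TME-CM libraries, a ratio of normalised counts of 257 with a 95% counting interval of 71.1 to 2129. All 4 TME-CM libraries carried the transcript and 3 of 4 unstimulated libraries had none. Vcam1, a ligand of the integrin VLA-4, measured 4.76, 6.73, 4.88 and 0.182 CPM in the unstimulated libraries and 32.2, 36.8, 340.02 and 138 CPM after TME-CM (log2 fold change 5.26 ± 0.95, adjusted p = 0.00769). Icam1, a ligand of LFA-1, measured 2.86, 4.04, 4.88 and 0 CPM in the unstimulated libraries and 31.003, 35.95, 89.6 and 72.3 CPM after TME-CM (log2 fold change 4.61 ± 1.01, adjusted p = 0.0331). TME-CM replicates 3 and 4 were highest for both, and the groups did not overlap. Icam1 was called in 9 of 21 other settings and in 3 of the 8 fits that each dropped a library, Vcam1 in 17 and 7, and Sele in 20 and 8. With the log2 Yam1 share as a covariate in the quasi-likelihood fit, Sele passed (adjusted p = 0.0089). Vcam1 (adjusted p = 0.157) and Icam1 (adjusted p = 0.132) did not, nor did they with the Yam1 class (0.0581 and 0.0727). These 3 were the called genes among 16 tested adhesion molecules and syndecans, whose median was 0.52; syndecans, integrins and Cd44 did not pass, with Cd44 at 0.98 (adjusted p = 0.601).

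Selp, encoding P-selectin, fell under the count filter but had 2, 1, 0 and 0 counts in the unstimulated libraries and 441, 5, 137 and 186 counts after TME-CM; with no filter it was called (log2 fold change 6.15, adjusted p = 0.00234). Of 8 endothelial markers, Tie1, Tek and Cldn5 had no count in any of the 8 libraries, Vwf had 1 count over the unstimulated and 0 over the TME-CM libraries, Pecam1 7 and 3, Cdh5 0 and 13, Emcn 22 and 97, and Kdr 322 and 175. The summed level of 8 endothelial markers ranged from 5.38 to 54.8 CPM unstimulated and 1.76 to 40.2 CPM after TME-CM, and the 1 marker that was tested was not called; their part in the selectin values was not tested. In CPM of the plain library total, Sele ranged from 16.7 to 86.1 at 6 h, from 0 to 2.58 at 12 h and from 0.581 to 1.43 at 24 h of TME-CM, and Selp from 3.78 to 106 at 6 h, from 6.17 to 28.6 at 12 h and from 0 to 6.98 at 24 h.

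**Figure D3:**
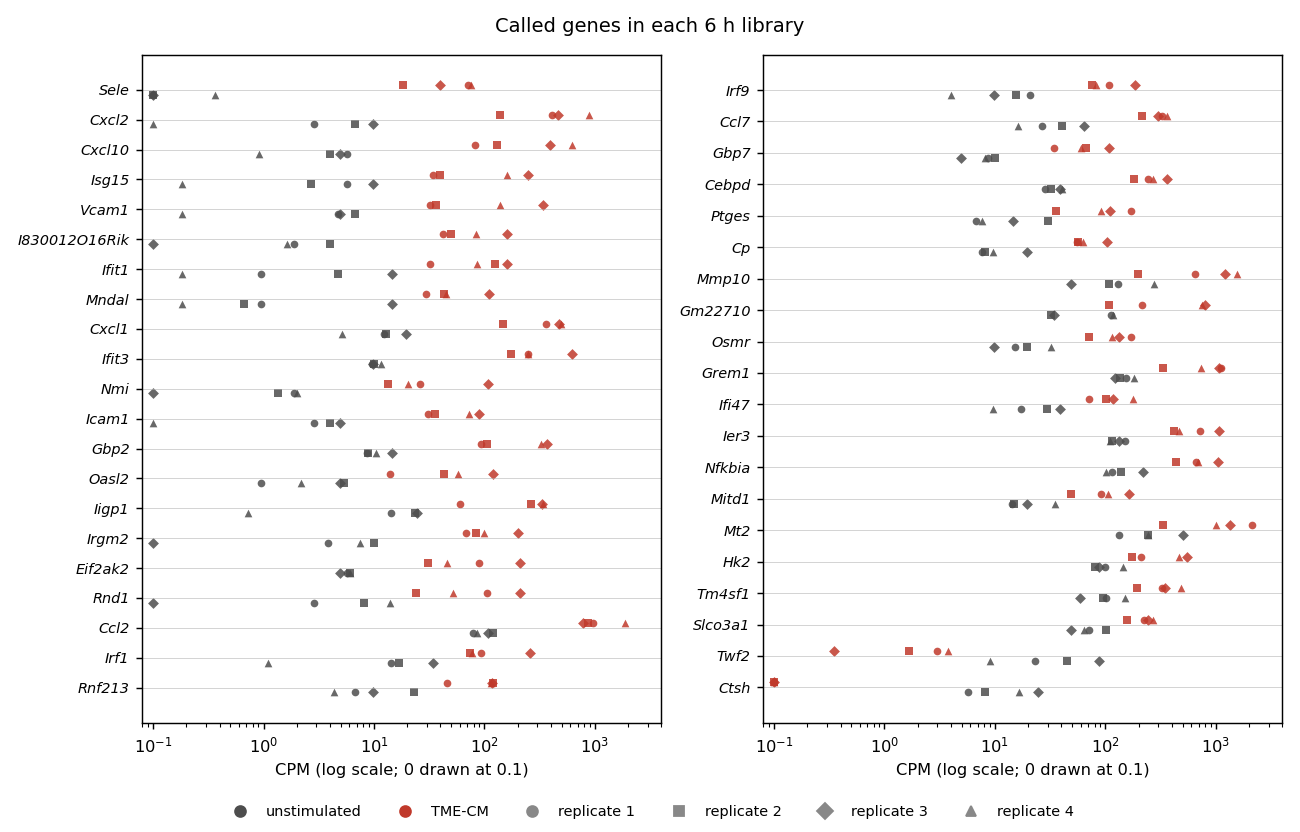
Level of 41 of the 42 called genes (CPM, log scale, 0 drawn at 0.1) in the 4 unstimulated (grey) and 4 TME-CM (red) libraries of 6 h, with a symbol for each replicate. The colors separate except in Mmp10, Gm22710 and Mt2, where the square of TME-CM replicate 2 lies among the grey points, and Twf2 and Ctsh are lower after TME-CM.

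The type I interferon-stimulated genes that rose included effectors and the factor Irf9. Of 19 tested type I interferon-stimulated genes, all 19 had a positive log2 fold change (18 with DESeq2's Wald test; 52.2% of all tested genes were positive), 14 had no overlap between groups (2.3% of all tested genes were higher without overlap) and 6 were called, among them Isg15, Ifit1, Ifit3, Irf9 and Oasl2. The list's median was 3.52. The count filter admits a gene that is high in 1 group only, so members low in unstimulated cells could be tested only if they rose. With no filter, 24 of 27 members were positive and the median was 3.26. Irf9, an interferon-regulatory transcription factor, measured 20.9, 15.5, 9.77 and 4.004 CPM in the unstimulated libraries and 108, 76.1, 184 and 82.4 CPM after TME-CM (log2 fold change 3.17 ± 0.61, adjusted p = 0.00769). Stat2, a transcription factor of the type I interferon response, measured 5.71, 11.4, 0 and 0.546 CPM in the unstimulated libraries and 29.8, 48.5, 107 and 50.6 CPM after TME-CM and did not pass (log2 fold change 3.57 ± 0.88, adjusted p = 0.0646).

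The called effector genes had low control levels. Ifit3, of the family of RNA-binding Ifit proteins, measured 9.52, 10.1, 9.77 and 11.5 CPM in the unstimulated libraries and 248, 176, 622 and 246 CPM after TME-CM (log2 fold change 4.95 ± 0.71, adjusted p = 0.000693). Ifit1 measured 0.952, 4.71, 14.7 and 0.182 CPM in the unstimulated libraries and 32.2, 125, 161 and 84.8 CPM after TME-CM (log2 fold change 5.14 ± 1.05, adjusted p = 0.0263). Isg15, a ubiquitin-like modifier, measured 5.71, 2.69, 9.77 and 0.182 CPM in the unstimulated libraries and 34.003, 39.3, 250.1 and 159.9 CPM after TME-CM (log2 fold change 5.31 ± 0.90, adjusted p = 0.00214). TME-CM replicate 3 was the highest library for these 3 genes, and TME-CM replicate 1 the lowest for Ifit1 and Isg15. I830012O16Rik, now named Ifit3b and a near copy of Ifit3, measured 1.90, 4.04, 0 and 1.64 CPM in the unstimulated libraries and 42.003, 50.2, 161 and 84.4 CPM after TME-CM (log2 fold change 5.20 ± 0.91, adjusted p = 0.0022); reads that fit both copies were discarded, so its value is uncertain. Oasl2, a 2′-5′ oligoadenylate synthetase-like gene, measured 0.952, 5.38, 4.88 and 2.18 CPM in the unstimulated libraries and 14.001, 42.6, 118 and 57.4 CPM after TME-CM (log2 fold change 4.22 ± 0.94, adjusted p = 0.0361). On chromosome 19 the genes Ifit3, Ifit3b and Ifit1 follow each other on the plus strand from chr19:34583531 to chr19:34650009.

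Called interferon-related genes outside that list included Eif2ak2, Rnf213, Mndal and Nmi. Eif2ak2, the double-stranded RNA sensor PKR, measured 5.71, 6.06, 4.88 and 6.01 CPM in the unstimulated libraries and 89.8, 30.9, 211 and 45.6 CPM after TME-CM (log2 fold change 4.01 ± 0.70, adjusted p = 0.00228). Rnf213, a large ubiquitin ligase, measured 6.67, 22.9, 9.77 and 4.37 CPM in the unstimulated libraries and 46.2, 119.6, 116 and 115 CPM after TME-CM (log2 fold change 3.18 ± 0.66, adjusted p = 0.0208). For Eif2ak2 the 4 unstimulated libraries were within 4.88 to 6.06 CPM. Mndal, of the interferon-inducible p200 family, measured 0.952, 0.673, 14.7 and 0.182 CPM in the unstimulated libraries and 29.4, 43.5, 111 and 44.5 CPM after TME-CM (log2 fold change 5.08 ± 1.19, adjusted p = 0.0478). Nmi, an interferon-inducible protein, measured 1.90, 1.35, 0 and 2.002 CPM in the unstimulated libraries and 26.2, 13.4, 107 and 20.4 CPM after TME-CM (log2 fold change 4.65 ± 1.08, adjusted p = 0.0478). Both lay close to the threshold, Nmi was called in 6 of 21 other settings and Mndal in 10, and unstimulated replicate 3 held the highest control value of Mndal.

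Among 20 tested interferon-γ and antigen presentation genes, the 5 called genes were the guanylate-binding proteins Gbp2 and Gbp7, the immunity-related GTPases Irgm2 and Iigp1, and the factor Irf1. Of all tested genes, 0.432% were called higher. The list's median was 2.06, but the count filter again favored members that rose. With no filter, 22 of 26 members were positive, 7 were called higher and the median was 2.71. Gbp2 measured 8.57, 8.75, 14.7 and 10.4 CPM in the unstimulated libraries and 93.01, 105, 367 and 322 CPM after TME-CM (log2 fold change 4.47 ± 0.60, adjusted p = 0.000121), and its neighbor Gbp7 measured 8.57, 10.1, 4.88 and 8.19 CPM in the unstimulated libraries and 34.2, 66.1, 107 and 59.6 CPM after TME-CM (log2 fold change 2.99 ± 0.63, adjusted p = 0.0208). Irgm2 measured 3.81, 10.1, 0 and 7.46 CPM in the unstimulated libraries and 68.6, 83.6, 201 and 98.1 CPM after TME-CM (log2 fold change 4.12 ± 0.64, adjusted p = 0.000693). Iigp1 measured 14.3, 23.5, 24.4 and 0.728 CPM in the unstimulated libraries and 60.4, 265, 330.2 and 335 CPM after TME-CM (log2 fold change 4.15 ± 0.82, adjusted p = 0.0304). The GTPases defend against vacuolar pathogens, and in each of them every TME-CM library was above every control. Ifi47, a related GTPase outside the list, measured 17.1, 29.6, 39.1 and 9.65 CPM in the unstimulated libraries and 70.4, 100.3, 117 and 179 CPM after TME-CM (log2 fold change 2.40 ± 0.56, adjusted p = 0.0478). Irf1 measured 14.3, 16.8, 34.2 and 1.09 CPM in the unstimulated libraries and 93.4, 74.4, 259 and 77.9 CPM after TME-CM (log2 fold change 3.19 ± 0.71, adjusted p = 0.0408), with TME-CM replicate 3 apart from the others. Gbp5 had no count in any unstimulated library and 9.001, 9.20, 20.7 and 21.1 CPM after TME-CM, and just missed the threshold (adjusted p = 0.0564), as did Igtp (log2 fold change 4.996 ± 1.06, adjusted p = 0.0519). The list fell to 3 called genes without H-CM replicate 4.

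The antigen presentation genes of the same list were not called at 6 h. B2m, the light chain of MHC class I, measured 979.8, 1021, 1114 and 477 CPM in the unstimulated libraries and 814, 1059, 796 and 625 CPM after TME-CM (log2 fold change -0.12 ± 0.33, adjusted p = 0.975). H2-K1, a class I heavy chain, measured 24.8, 63.9, 493 and 5.64 CPM in the unstimulated libraries and 66.2, 48.5, 5.62 and 29.3 CPM after TME-CM, so that a single control library, unstimulated replicate 3, decided the sign of its log2 fold change of -1.88 ± 1.17; without it the value was 0.27. By 24 h B2m was higher by 1.44 on the log2 scale (adjusted p = 1.8e-05) and H2-K1 by 3.26 (adjusted p = 0.000172). The direct test of the change from 6 h to 24 h passed for neither (adjusted p = 0.152 for B2m and 0.367 for H2-K1).

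Of 14 tested NF-κB subunits and feedback genes, Nfkbia alone was called. All 14 had a positive log2 fold change, against 52.2% of all tested genes, 6 were higher without overlap, against 2.3%, and the median was 1.74. With no filter on low counts, 19 of 22 were positive and the median was 1.83. Nfkbia, encoding the inhibitor IκBα and itself an NF-κB target, measured 114, 139, 219.8 and 102 CPM in the unstimulated libraries and 657, 431, 1050.3 and 688 CPM after TME-CM (log2 fold change 2.33 ± 0.38, adjusted p = 0.00105). Bcl3, a nuclear IκB protein, measured 4.76, 6.06, 0 and 0.182 CPM in the unstimulated libraries and 80.4, 17.6, 51.99 and 19.2 CPM after TME-CM (adjusted p = 0.139), and Nfkb1 measured 7.62, 10.1, 9.77 and 1.27 CPM in the unstimulated libraries and 44.4, 21.7, 26.3 and 72.1 CPM after TME-CM (adjusted p = 0.393). Both were separated between the groups but did not pass. Ier3, an immediate early survival gene, measured 149, 114, 132 and 110.1 CPM in the unstimulated libraries and 714, 413, 1057 and 467 CPM after TME-CM (log2 fold change 2.39 ± 0.37, adjusted p = 0.000669) and was the 1 call among 20 immediate early genes, whose median was −0.15. Cebpd, a transcription factor of the acute-phase response, measured 28.6, 32.3, 39.1 and 40.8 CPM in the unstimulated libraries and 243, 182, 363 and 271 CPM after TME-CM (log2 fold change 2.92 ± 0.42, adjusted p = 0.000374). In both genes every TME-CM library was above every unstimulated library.

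Of the cytokine and receptor genes, Osmr was called. Osmr, the oncostatin M receptor, measured 15.2, 19.5, 9.77 and 31.8 CPM in the unstimulated libraries and 170.4, 71.1, 132 and 115 CPM after TME-CM (log2 fold change 2.58 ± 0.52, adjusted p = 0.0137) and was the 1 call among 8 IL-6 family and STAT3 genes. Socs3, the feedback inhibitor of that pathway, measured 6.67, 4.04, 4.88 and 26.9 CPM in the unstimulated libraries and 137, 46.8, 111 and 44.6 CPM after TME-CM (log2 fold change 2.84 ± 0.71, adjusted p = 0.073). Il1r1, the signaling IL-1 receptor, measured 36.2, 7.40, 4.88 and 10.4 CPM in the unstimulated libraries and 52.2, 44.3, 111 and 133 CPM after TME-CM (log2 fold change 2.46 ± 0.66, adjusted p = 0.113). The groups did not overlap in these 3 genes, and none of 11 IL-1 family and signaling genes passed. Il6 had 0, 1, 0 and 16 counts in the unstimulated libraries and 108, 29, 2 and 275 counts after TME-CM, so TME-CM replicate 3 held fewer than unstimulated replicate 4, and with no filter it was not called (adjusted p = 0.196). Csf3 had no count in the unstimulated libraries and 43, 2, 2 and 45 after TME-CM, and Lif had 7 and 160 counts over the groups. None of 16 tested colony-stimulating and growth factors was called.

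Single members of other lists passed. Ptges, the inducible prostaglandin E synthase, measured 6.67, 30.3, 14.7 and 7.64 CPM in the unstimulated libraries and 169, 35.95, 109.9 and 90.2 CPM after TME-CM (log2 fold change 2.78 ± 0.65, adjusted p = 0.0478). Ptgs2, encoding COX-2, which supplies its substrate, measured 151, 295, 97.7 and 318 CPM in the unstimulated libraries and 289, 504, 406 and 1034 CPM after TME-CM, with overlapping groups (log2 fold change 1.35 ± 0.42, adjusted p = 0.307). Thus 1 of 9 prostaglandin genes was called. Mmp10, stromelysin-2, measured 129, 108, 48.8 and 273 CPM in the unstimulated libraries and 645, 197, 1215 and 1552 CPM after TME-CM (log2 fold change 2.66 ± 0.58, adjusted p = 0.0478), the 1 call among 20 proteases and inhibitors. Grem1, a secreted antagonist of bone morphogenetic proteins, measured 152, 136, 122 and 182 CPM in the unstimulated libraries and 1107, 333, 1058 and 732 CPM after TME-CM (log2 fold change 2.44 ± 0.39, adjusted p = 0.000858). Bmp4, a protein that Grem1 binds, measured 57.1, 109, 53.7 and 78.98 CPM in the unstimulated libraries and 15.001, 33.4, 31.3 and 14.8 CPM after TME-CM. The groups did not overlap, but Bmp4 did not pass (log2 fold change -1.69 ± 0.50, adjusted p = 0.236). It was lower at 12 h (log2 fold change -2.17, adjusted p = 3.93e-05), and the direct test of the change from 6 h to 12 h did not pass (adjusted p = 0.971).

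Metal, metabolic and membrane genes completed the higher set. Cp, the copper-binding ferroxidase ceruloplasmin, measured 7.62, 8.07, 19.5 and 9.65 CPM in the unstimulated libraries and 54.8, 56.9, 102 and 62.8 CPM after TME-CM (log2 fold change 2.76 ± 0.64, adjusted p = 0.0478). Mt2, a metallothionein, measured 133, 241, 503 and 244 CPM in the unstimulated libraries and 2140.2, 332, 1348 and 1006 CPM after TME-CM (log2 fold change 2.13 ± 0.49, adjusted p = 0.0478), and its TME-CM replicate 2 lay below unstimulated replicate 3. Hk2, an inducible hexokinase, measured 98.1, 80.1, 87.9 and 144 CPM in the unstimulated libraries and 209, 175, 544 and 463 CPM after TME-CM (log2 fold change 1.75 ± 0.41, adjusted p = 0.0478), the 1 call among 24 hypoxia and glycolysis genes, where Hif1a did not pass (log2 fold change 1.34 ± 0.37, adjusted p = 0.151). Cp, Mt2 and Hk2 lay near the threshold, and Hk2 and Mt2 were each called in 7 of 21 other settings. Rnd1, an atypical small GTPase, measured 2.86, 8.07, 0 and 14.01 CPM in the unstimulated libraries and 105, 24.2, 211 and 51.4 CPM after TME-CM (log2 fold change 3.68 ± 0.74, adjusted p = 0.0137). Tm4sf1, a tetraspan membrane protein, measured 102, 94.2, 58.6 and 150.3 CPM in the unstimulated libraries and 325, 191, 346 and 481 CPM after TME-CM (log2 fold change 1.70 ± 0.40, adjusted p = 0.049). Slco3a1, an organic anion transporter, measured 71.4, 102, 48.8 and 63.9 CPM in the unstimulated libraries and 221, 158, 244 and 268 CPM after TME-CM (log2 fold change 1.62 ± 0.38, adjusted p = 0.0478), and was called in 5 of 21 other settings and in 1 of the 8 fits that each dropped a library.

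Some called symbols share exon bases with another annotated gene, and the strand setting of the counts is not given. Mitd1, which acts with the ESCRT machinery, measured 14.3, 14.8, 19.5 and 34.9 CPM in the unstimulated libraries and 91.8, 48.5, 164 and 106 CPM after TME-CM (log2 fold change 2.26 ± 0.52, adjusted p = 0.0478) and shares 262 exon bases with Lipt1 on the other strand. Gm22710, annotated as an snRNA, measured 112, 32.3, 34.2 and 117 CPM in the unstimulated libraries and 214, 108, 793 and 755 CPM after TME-CM (log2 fold change 2.62 ± 0.58, adjusted p = 0.0478) and lies wholly, over 125 bases, within an exon of 2900060B14Rik. Mt2 shares 432 of its 588 exon bases with Gm45774 on the other strand, and Rnf213 shares 1476 of 16888 with A930037H05Rik on the other strand. In all, 18 of the 42 called genes share exon bases with another annotated gene. The share among all tested genes was not counted, and the part of these overlaps in the values was not tested.

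The 2 lower genes were Twf2 and Ctsh. Twf2, the actin monomer-binding protein twinfilin-2, measured 22.9, 45.1, 87.9 and 9.10 CPM in the unstimulated libraries and 3.0002, 1.67, 0.351 and 3.74 CPM after TME-CM (log2 fold change -4.09 ± 0.96, adjusted p = 0.0478). Ctsh, the lysosomal cysteine protease cathepsin H, had 6, 12, 5 and 90 counts in the unstimulated libraries and 0 in all 4 TME-CM libraries (adjusted p = 0.0455). At a floor of 3 counts over the group Ctsh was 65.8-fold lower, and the lower 95% counting limit of the ratio was 52.7. Neither was called lower at the later times, where Ctsh had log2 fold changes of 0.46 at 12 h and 0.75 at 24 h and Twf2 0.45 and -0.014, none of which passed. The direct test of the change from 6 h did not pass for Twf2 (adjusted p = 0.139 at 12 h and 0.191 at 24 h), and the values for Ctsh are given below. Dropping 1 library at a time ended the Twf2 call in 6 of 8 fits and the Ctsh call in 5 of the 7 fits that tested it.

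Other programs showed no calls at 6 h. None of 18 ER stress, 21 sterol and fatty acid, 23 cell cycle or 15 mitochondrially encoded genes passed. The cell cycle genes had a median of −0.66, which was −0.12 without the shallow unstimulated replicate 3, −0.19 with voom weights and 0.091 over the 7 genes tested with thinned counts, and 4 were lower without overlap (1.23% of all tested genes were), among them Mcm7, which measured 109, 69.3, 200.2 and 54.1 CPM in the unstimulated libraries and 42.6, 51.8, 3.51 and 37.4 CPM after TME-CM, and Aurka, at 9.52, 20.9, 34.2 and 7.10 CPM against 0, 5.02, 0 and 0.56 CPM. All 15 mitochondrial transcripts had positive values with a median of 0.76, which moves with the mitochondrial share given above; with DESeq2's size factors 14 of 15 were positive. The mitochondrial share's part in these values was not tested.

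The label of the cells was checked against markers. Of 14 enteric glial markers 12 were tested, none was called and their median was 0.43; S100b measured 83.8, 102, 29.3 and 87.4 CPM in the unstimulated libraries and 232, 118, 63.6 and 56.8 CPM after TME-CM, Sox10 94.3, 63.2, 19.5 and 32.8 CPM in the unstimulated libraries and 75.01, 91.97, 72.4 and 62.4 CPM after TME-CM, and Gfap was too low to be tested. Fibroblast and smooth muscle markers were present too, with summed levels of 1802 to 5726 and 1939 to 4577 CPM in unstimulated cells against 620.3 to 1368 CPM for glial markers. These sums cover different genes and do not give shares of cells, and which cells held the transcripts was not tested. The paper reports that glial markers were strongly enriched in such unstimulated cultures. It describes little Prkg1 and Foxp2 for smooth muscle and little Pdgfra and Wt1 for mesenchyme. After TME-CM the sums were 5810.0 to 7441 CPM for fibroblast, 2401 to 5505 CPM for smooth muscle and 1193 to 1869.8 CPM for glial markers. The fibroblast sum was thus higher in every TME-CM library than in any unstimulated library, while none of its 10 markers was called (median log2 fold change 0.53); its part in the results was not tested. In bulk RNA, a change in the number of cells of a type and a change of RNA per cell cannot be told apart.

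**Figure D4:**
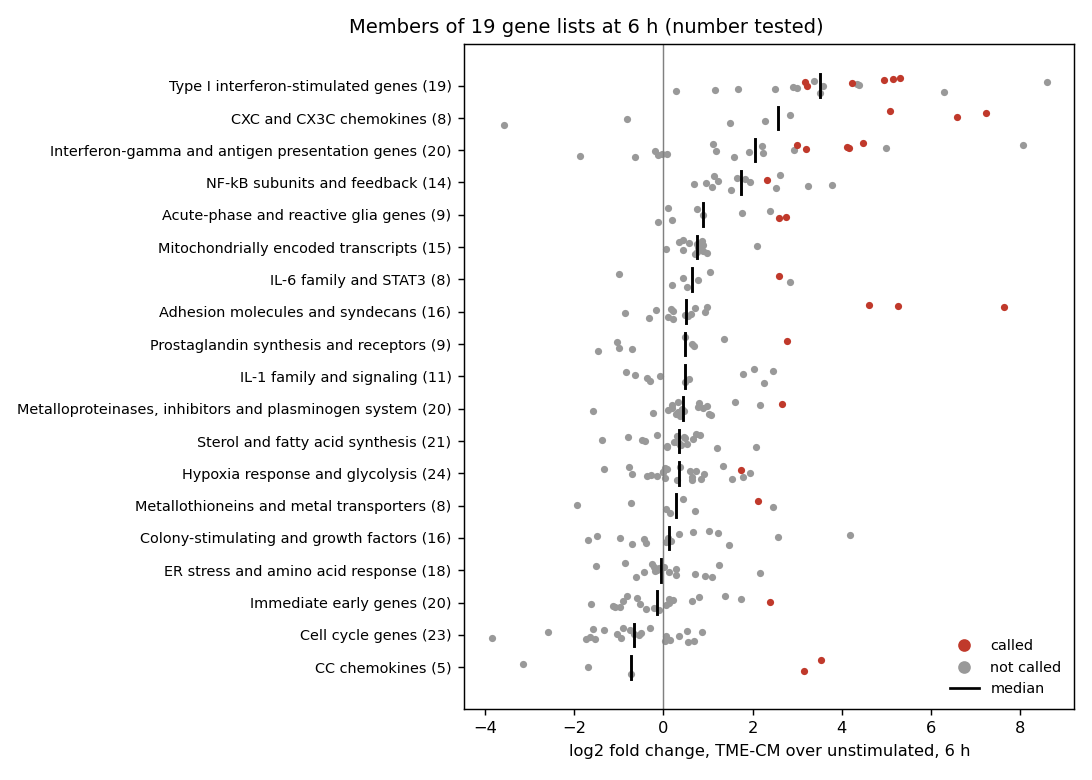
Log2 fold change at 6 h (horizontal axis) of each tested member of 19 gene lists, with called genes in red, other genes in grey and the list median as a black bar; the number tested is in parentheses. All 19 type I interferon-stimulated genes and all 14 NF-κB genes lie right of 0, whereas ER stress genes center at a median of −0.04.

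Blood cell transcripts were present in some libraries of both groups. Mpo, the myeloperoxidase of neutrophil precursors, measured 36.2, 43.7, 205 and 0.182 CPM in the unstimulated libraries and 0, 47.7, 0.351 and 0 CPM after TME-CM. Itgam measured 9.52, 80.7, 288 and 0.546 CPM in the unstimulated libraries and 0.2, 57.7, 1.05 and 0.187 CPM after TME-CM, and Ptprc, the pan-leukocyte marker CD45, measured 20.9, 12.1, 97.7 and 0.182 CPM in the unstimulated libraries and 0, 25.1, 0.351 and 6.16 CPM after TME-CM. These 3 genes were high in unstimulated replicates 1 to 3 and TME-CM replicate 2, the libraries with a high Yam1 share, and highest in the shallow unstimulated replicate 3. The 12 tabulated macrophage and monocyte markers summed to 100.3 to 625 CPM unstimulated and 60.8 to 456 CPM after TME-CM, 10 were tested and none was called, and Aif1 had no count. The 8 neutrophil markers, of which Csf3r and Ly6g were at 0, summed to 0.182 to 317 CPM unstimulated and 0 to 61.03 CPM after TME-CM. Of these, 2 were tested, with a median log2 fold change of -2.67, and neither was called. T cell markers summed to at most 48.8 CPM unstimulated and 1.67 CPM after TME-CM, and epithelial markers to at most 13.5 and 5.02 CPM. The part of these transcripts in the 6 h values was not tested.

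Unstimulated libraries also held acute-phase transcripts at 6 h. Saa3, serum amyloid A, measured 318, 415, 698 and 14.01 CPM in the unstimulated libraries and 457, 399.6, 458 and 209 CPM after TME-CM (log2 fold change 0.097 ± 0.96, adjusted p = 0.993). Lcn2, lipocalin-2, measured 25.7, 12.8, 9.77 and 0.546 CPM in the unstimulated libraries and 28.002, 26.8, 14.4 and 13.5 CPM after TME-CM (log2 fold change 0.76 ± 0.93, adjusted p = 0.95). Unstimulated replicates 1 to 3 reached the TME-CM level of Saa3, while unstimulated replicate 4 lay below TME-CM replicates 1, 3 and 4 of its own Yam1 class. In CPM of the plain library total, Saa3 in unstimulated cells ranged from 16.6 to 558 at 6 h but from 24.5 to 47.3 at 12 h and from 30.1 to 37.6 at 24 h. Lcn2 ranged from 0.648 to 20.98, then 1.05 to 4.14, then 1.48 to 2.76. Timp1, an inhibitor of metalloproteinases, measured 86.6, 69.98, 78.1 and 27.5 CPM in the unstimulated libraries and 175, 79.4, 141 and 82.2 CPM after TME-CM, with overlapping groups (adjusted p = 0.813). Of 9 tested acute-phase and reactive glia genes, Cp and Osmr were called and the median was 0.89.

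Most genes called at 6 h were also called later. Separate libraries of 12 h and 24 h tested 41 of the 42 genes, Sele being too low. Of the 42, 38 were also called at 12 h, which is 90.5% of the 6 h set and 7.09% of the 536 genes called at 12 h (4.41% of those tested, 2.67% higher and 1.74% lower), and 36 at 24 h, which is 85.7% of the 6 h set and 2.98% of 1210 (9.52% of those tested, 4.82% higher and 4.7% lower). The sign was the same in 38 at 12 h and in 40 at 24 h. At 24 h Rnd1 had a log2 fold change of 0.21 and Nmi of 1.39, neither of which passed, and Vcam1 had 5.26 at 6 h, 2.69 at 12 h and 1.51 at 24 h, where it was called. The change from 6 h to 24 h passed in none of these genes (adjusted p = 0.159 for Rnd1, 0.494 for Nmi and 0.195 for Vcam1).

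The change of the TME-CM effect between times was tested directly in fits of 16 libraries. From 6 h to 12 h, 7 genes changed (0.0577% of those tested), 6 upward (0.0495%) and 1 downward (0.00825%), and from 6 h to 24 h, 17 (0.135%), 13 upward (0.104%) and 4 downward (0.0319%). Ccl7 was the chemokine with a larger effect at both later times, by 2.95 ± 0.52 at 12 h (adjusted p = 0.0126) and 2.12 ± 0.44 at 24 h (adjusted p = 0.0484). The effect on Cp was larger by 3.24 ± 0.51 at 24 h (adjusted p = 0.00278). Ctsh, called lower at 6 h, changed by 9.04 by 12 h and 9.74 by 24 h, sizes that depend on the prior count because it had no count after 6 h of TME-CM. Genes not called at 6 h also gained. Lcn2 gained 6.90 ± 0.88 by 12 h (adjusted p = 0.000582) and 8.20 ± 0.82 by 24 h (adjusted p = 6.03e-06). Saa3 gained 7.66 ± 0.995 and 8.85 ± 1.01 (adjusted p = 0.00582 and 0.00061); its 6 h control values are given above.

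Among the metalloproteinases, members differed. Mmp3, stromelysin-1, had log2 fold changes of 1.602, 5.40 and 6.16 at 6, 12 and 24 h, and Mmp9, gelatinase B, 0.79, 4.37 and 4.85; both changes passed at both later times. Mmp10, called at 6 h, had 2.66, 2.24 and 1.92, and the median of the 20 tested proteases and inhibitors was 0.44 at 6 h. Cxcl5 gained 5.82 ± 1.10 by 24 h (adjusted p = 0.0208). Genes whose effect was lower at 24 h than at 6 h were the contractile actin Acta2 (change −2.15), the chloride channel Ano1 (−2.70), the caveolar protein Cav1 (−3.50) and Dlk1 (−2.22). Without 6 h TME-CM replicate 2, 43 rather than 17 genes had a different effect at 24 h, and without 24 h unstimulated replicate 4 it was 9.

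**Figure D5:**
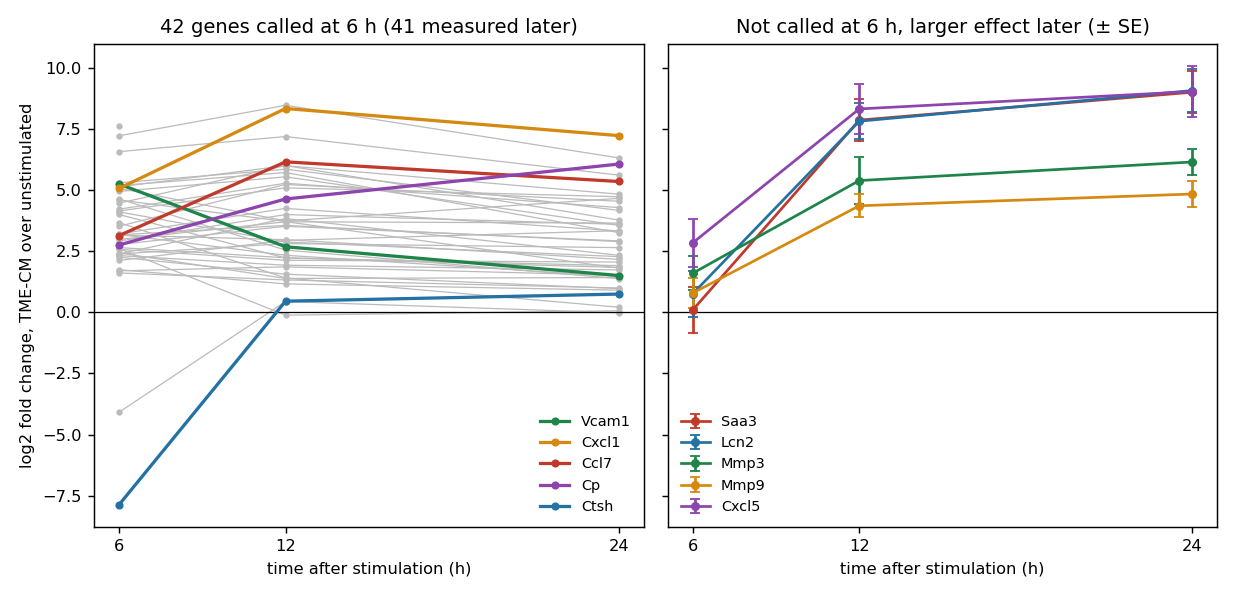
Log2 fold change of TME-CM over unstimulated (vertical axis) at 6, 12 and 24 h for the genes called at 6 h (left, with 5 named) and for 5 genes not called at 6 h (right, bars are standard errors). Lines on the left slope both up (Ccl7, Cp) and down (Vcam1), Ctsh starts at −7.88 and ends near 0, and the lines on the right rise from at most 2.85 to between 4.85 and 9.09.

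Medium from healthy colon was measured at the same time. H-CM against unstimulated cells called 0 genes at 6 h with edgeR's quasi-likelihood test, and 58 had an unadjusted p under 0.05, in a group whose replicate 4 held 13518 counts. The 0 calls do not show that H-CM had no effect. Of the 42 genes called with TME-CM, 36 also had a positive log2 fold change for H-CM against unstimulated cells. Over the 40 higher genes the H-CM median was 1.26, and the median for TME-CM against H-CM was 2.16. TME-CM against H-CM called 9 (0.0972% of those tested), all among the 42: Cxcl1, Cxcl10, Ccl2, Gbp2, Cebpd, Osmr, Grem1, Ier3 and Mt2. The comparisons share libraries, so their values are given side by side only. For Ccl2 the log2 fold change was 3.53 for TME-CM and 1.57 for H-CM against unstimulated cells, and 1.96 for TME-CM against H-CM (adjusted p = 0.033). For Gbp2 the values were 4.47, -0.35 and 4.82 (adjusted p = 0.000281), and for Cxcl1 5.08, 1.06 and 4.01 (adjusted p = 0.000281). Irf9, at 3.17, 2.11 and 1.06 (adjusted p = 0.877), and Ifit3, at 4.95, 2.82 and 2.13 (adjusted p = 0.456), did not pass between the media.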

How the data were processed

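RNA from EGCs was sequenced by the authors with a 3′ mRNA kit (QuantSeq). Per the study's methods, adapters were removed with fastq-mcf, reads were aligned to mm10 with HISAT2, reads with several locations were discarded and genes were counted with HT-seq Count; annotation and strand setting are not given in the sources used here. The labels list FastQC 0.11.7 and SAMtools 1.5. The deposited values are raw counts for 43472 gene symbols in 36 libraries, each with its own total, with no normalization; no 2 libraries were identical. PCR copies were not removed, so counting intervals and floors cover counting error only.

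The test was edgeR 4.0.16 in R 4.3.3, with filterByExpr (minimum count 10), TMM factors and a robust quasi-likelihood fit with 1 mean per group over the 12 libraries of a time point, Benjamini-Hochberg adjustment over all genes tested, and calls at an adjusted p under 0.05. Changes of effect between times were fitted on 16 libraries. Single values were compared with two-sided exact permutation tests. Spread was widest at 6 h (common dispersion 0.572, against 0.122 at 12 h and 0.0455 at 24 h).

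Every called gene but 1, which is not reported here, is named, per-library values are given for called genes with at least 20 CPM on average, and promoters are shown for the 4 called genes with the largest changes that hold the κB letters. Genes of 19 pathway and 9 marker lists serve as examples; Il36g and Adgre1 were not in the table. The genes, lists and comparison were chosen with earlier results of these data known, and low-count genes (Il6, Lif, Csf3, Ccl20, Selp) and some markers were named after their values were seen. Positions are from GENCODE M21 (GRCm38, also called mm10), where all 42 called genes were matched and Yam1 was not. Promoters are from RefSeq. Alternatives used DESeq2 1.42.0, limma 3.58.1, other filters, other sets of libraries, terms for Yam1, a replicate block and thinned counts; the Yam1 class, the thinning and the removal of both shallow libraries were added after seeing the data.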

Additional observations from a re-analysis of the deposited data

Results flagged for a closer look

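In 20 of 154 groups of 4 libraries 1 library stood apart from the others by Dixon's criterion. Its limit gives about 1 of 20 groups only for independent, normally distributed values. The groups here share libraries and hold unlogged CPM, so the 20 cannot be set against that rate. The Yam1 share did so in both groups, at 13.1% in unstimulated replicate 4 and 37.8% in TME-CM replicate 2, as did the Yam1 level itself, at 110718 and 417109 CPM. TME-CM replicate 2 also stood apart for Mpo (47.7 CPM), Itgam (57.7 CPM) and Aurka (5.02 CPM). TME-CM replicate 3 was high for Ifit3 (622 CPM), Nmi (107 CPM), Irf1 (259 CPM), Oasl1 (69.5 CPM) and Cp (102 CPM), TME-CM replicate 4 for Ccl2 (1885 CPM), and TME-CM replicate 1 low for Rnf213 (46.2 CPM). The shallow unstimulated replicate 3 was high for Mndal (14.7 CPM), Cp (19.5 CPM) and H2-K1 (493 CPM), and unstimulated replicate 4 for Socs3 (26.9 CPM), Junb (117 CPM) and Sele (0.364 CPM).

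The TME-CM effect differed between times in the direct test for these genes (change in log2 fold change). From 6 h to 12 h it rose for Saa3 (7.66), Lcn2 (6.90), Mmp3 (3.67), Mmp9 (3.43), Ccl7 (2.95) and Ctsh (9.04) and was lower for Gm13889 (−3.001). From 6 h to 24 h it rose for Saa3 (8.85), Lcn2 (8.20), Cxcl5 (5.82), Mmp3 (4.41), Ifitm1 (4.10), Mmp9 (3.95), H2-D1 (3.40), Cp (3.24), Gstm1 (2.69), Ccl7 (2.12), Tmem176a (2.11), Ctsh (9.74) and Chil1 (13.18), and was lower for Cav1 (−3.50), Ano1 (−2.70), Dlk1 (−2.22) and Acta2 (−2.15). Ctsh and Chil1 had no count in the TME-CM libraries of 6 h, so the size of their change depends on the prior count of the fit.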

How the results depend on the processing

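The 42 genes called at 6 h became 23 with DESeq2's size factors, 23 in a fit of the 8 compared libraries, 72 with DESeq2's Wald test, 105 with no filter on low counts, 1113 in 1 model of all 36 libraries, 26 without H-CM replicate 4, 18 with the log2 Yam1 share, 21 with a term for a Yam1 share above 25% and 18 with the libraries thinned to 256453 counts. These fits did not test the same genes: the main fit tested 9256, the thinned fit of 8 libraries 3398, the fit with no filter 18333 and the model of all 36 libraries 13469. That model also shares its estimate of spread with the 12 h and 24 h libraries, which varied less. Leaving out a compared library gave 19 to 105 genes. The higher-to-lower split was 40 to 2, 539 to 574 in the model of all libraries, 75 to 30 with no filter and 59 to 46 without TME-CM replicate 2. DESeq2's size factors moved the median log2 fold change of all genes from 0.04 to −0.08. With the replicate number as a block 23 genes were called. Same-numbered libraries correlated at −0.06, 0.09, −0.03 and 0.13 in their deviations from the group means, and other pairs at −0.31 to 0.16. With 4 libraries per group and 2 Yam1 classes, these values cannot decide whether the numbers pair the libraries.

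The 7 genes with a changed effect at 12 h became 66 with no filter, 39 with DESeq2's Wald test, 75 in the model of all libraries and 4 to 18 leaving out a library; the 17 at 24 h became 112, 108, 114 and 9 to 43. The counts at 12 h and 24 h ranged from 414 to 502 and from 952 to 1321 leaving out a library.

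Genes that were not called could change sign. The log2 fold change of Saa3 was −0.12 with DESeq2's size factors, −0.14 with its Wald test, −0.019 with voom weights, −0.16 with the Yam1 class, −0.13 thinned and −0.31 to 0.63 leaving out a library. With the Yam1 covariate or class, H2-K1 was 0.71 and 0.41, B2m 0.22 and 0.11, Ptprc 1.62 and 0.97, and Yam1 itself 0.24 with the covariate. Leaving out a library gave −2.30 to 0.27 for H2-K1 and −0.33 to 0.020 for B2m, and leaving out both shallow libraries gave 0.27 and 0.024. S100b was −0.0089 with voom weights. The cause of these changes was not tested. At 6 h, 3 counts correspond to 0.572 to 11.7 CPM in the compared libraries, which limits what can be read in low genes.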
